A study of Homo sapiens with 6 samples.

Results

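The subject here is a set of developmental transcription factor genes in HEK293, a line from human embryonic kidney, after depletion of the RNA helicase MOV10. The families were picked with earlier results of these data known. Within them genes were chosen by symbol alone: the HOXA to HOXD, DLX, LHX, sine oculis, MEIS, PBX, IRX and MSX homeobox genes, the PAX, TBX and GATA genes, the forkhead genes FOXA to FOXS, and the SOX and KLF genes, each with a number after the family name. This took 84 of the 7682 genes in the deposited table: 23 HOX, 15 other homeobox, 18 FOX, 8 KLF, 7 SOX, 5 TBX, 4 PAX and 4 GATA genes. No HOXD and no MSX gene was listed. The cells were either mock transfected or transfected with MOV10 siRNA, and new RNA was marked with 4-thiouridine (4sU, 700 µM for 60 min). From each condition, poly(A)+ libraries were made of total RNA, of the 4sU-labelled RNA caught on streptavidin beads, and of the unlabelled flow-through. The labels give no siRNA sequence, clone or culture number, and nothing says that replicate columns 1 and 2 of the table came from separate cultures, so every p-value below measures only the spread between those columns.

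Homeobox, forkhead, HMG-box (SOX), T-box, paired-box (PAX), GATA and KLF proteins bind DNA through a domain shared within each family. They set the identity of cells and tissues during development. Their mRNAs are commonly short-lived, so that their levels follow transcription closely. The HOX genes lie side by side in clusters on separate chromosomes, in an order that mirrors where each is used along the body axis, and the clusters also carry microRNA genes whose seeds match the 3′ UTRs of several HOX mRNAs.

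MOV10 itself, in total RNA, read 13.1 and 14.6 with mock and 3.53 and 3.64 with siRNA, a 3.86-fold lower mean, so the labels of both conditions hold. Expression values carry no named unit and none is below 1.00, so library depth is unknown, a gene that is not listed may still be expressed, and levels are compared for one gene at a time, never between genes. After centring, the median factor gene differed 1.07-fold between the mock columns in total RNA (value + 1) and 1.11-fold in half-life. Half-lives are the authors' own, in min as settled by recomputation, and their medians over all genes were 657 and 713 min for mock and 668 and 900.0 min for siRNA. Because the siRNA replicate 2 column stands high for all genes, each change below is a log2 difference, siRNA minus mock, relative to the median gene of each column; uncentred, the median gene moved by 0.20 in half-life, -0.01 in total RNA, 0.14 in labelled RNA and 0.02 in the flow-through. Tests used limma on 6064 genes, those whose total RNA averaged at least 5 under each condition, which kept 49 of the 84 factor genes and left 35 under the minimum. A change is called at a Benjamini-Hochberg adjusted p under 0.05 over all 6064 genes. Of 9 nephric lineage markers EYA1, WT1, SALL1 and GATA3 were listed, of 3 neuronal filament genes NEFL and INA, and none of 10 fibroblast, leukocyte or endothelial markers. EYA1, WT1 and GATA3 averaged under 5 in total RNA under each condition, at 1.75, 2.15 and 3.93 with mock. SALL1 averaged 5.64 with mock and 4.01 with siRNA.

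The factor mRNAs were short-lived in mock cells. Their median half-life was 189.8 min over the 84 genes, against 684 min over all 7682, and 77 of the 84 lay below the median gene. Of the shortest-lived 10% of all genes, 45 were factor genes, or 53.6% of the 84. All 23 HOX mRNAs lay below the median gene, with a median of 151 min, and the HOXA genes, with a median of 106 min, were shorter-lived than the HOXB (184 min) and HOXC (164 min) genes. Median half-lives were 139 min for GATA, 179 min for the other homeobox genes, 190.1 min for TBX, 192 min for KLF, 198 min for SOX, 292 min for PAX and 334 min for FOX. The families were picked with earlier results known and their members by name, so these levels are a description and carry no test.

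**Figure D1:**
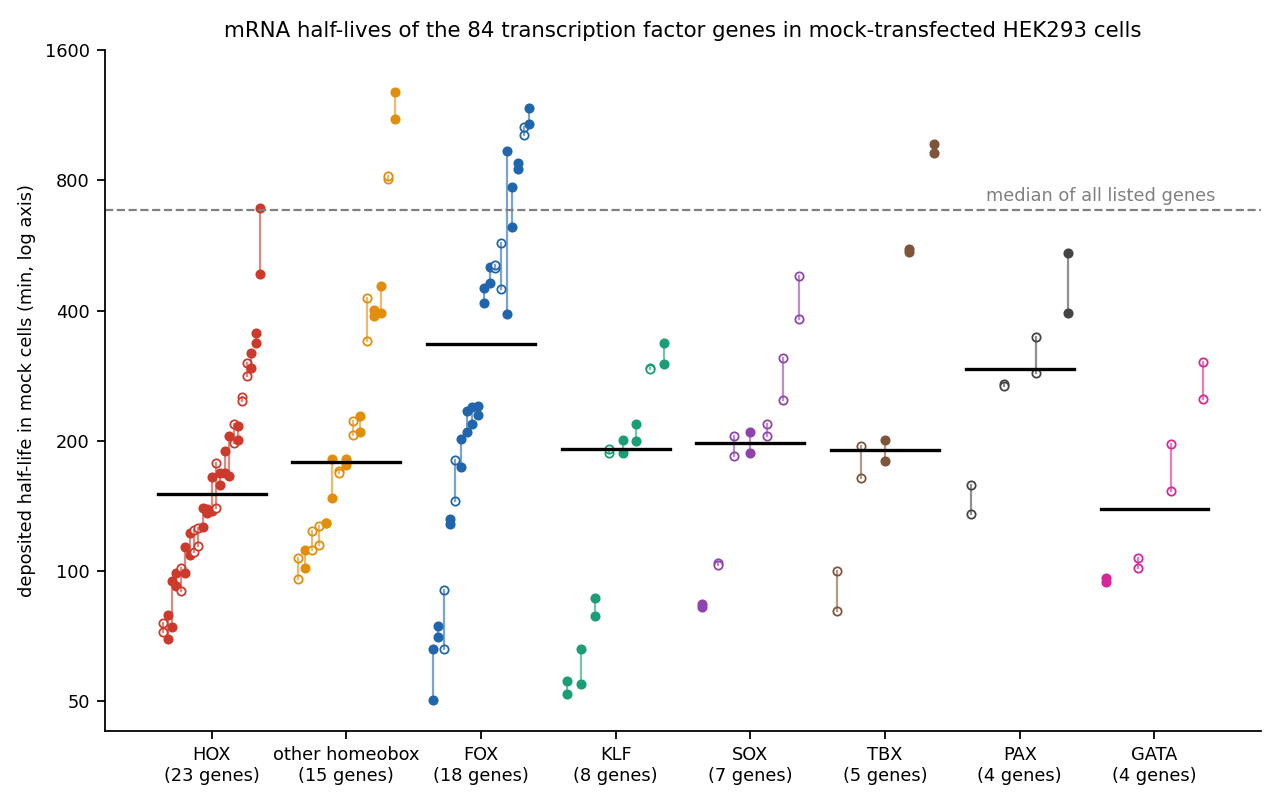
Deposited half-lives (min, log axis) of the 84 genes in mock cells, by family; each pair of joined points is the 2 mock columns of a gene, filled where the gene passed the expression minimum and open where it did not. Black bars are family medians over genes and the dashed line is the median of all 7682 genes, 684 min; all 23 HOX genes lie below it by the mean of their log2 half-lives.

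The shortest half-lives belonged to KLF10 and KLF11, a pair of zinc finger repressors induced by TGF-beta, and to FOXB1, FOXA1 and HOXC8. In the authors' deposited table KLF10 stood at 52.0 and 55.8 min in the mock columns and FOXB1, a forkhead factor of the developing brain, at 66.0 and 50.3 min. KLF11 stood at 54.8 and 66.2 min and FOXA1, a pioneer factor that opens chromatin, at 74.5 and 70.4 min in that table. For HOXC8, a factor of the trunk, the authors' deposited table gave 75.7 and 72.3 min. All 5 had half-lives near the labelling time of 60 min. After centring, FOXB1 differed 1.43-fold between its mock columns, beside 1.11-fold for the median factor gene. KLF11, FOXA1 and HOXC8 also stood above that median. At the other end the authors' deposited table gave 1109.9 and 1278 min for PBX2, a partner that binds DNA with HOX proteins, and 1083 and 1178 min for FOXM1, an activator of mitotic genes. FOXN4 had 1021 and 1065 min, TBX1 971 and 928 min and FOXO4, a target of insulin signalling, 879 and 851 min in the authors' deposited table. With FOXP4 and DLX4, these are the 7 factor mRNAs that lay above the median gene. Of the HOX genes, the geometric mean of the 2 mock columns was shortest for HOXC8 (74.0 min), HOXA3 (74.4 min), HOXA6 (83.9 min) and HOXA11 (95.4 min) among those named here, and longest for HOXC10 (579.8 min), HOXB9 (346 min) and HOXA10 (307 min). HOXC8 and HOXA3 differed by less than their own columns did.

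The set also shared gene structure. Exons were counted in the longest protein-coding transcript of each gene in GENCODE v29 (GRCh38), chosen apart from the one that gave its 3′ UTR. The median was 3 exons over the 82 factor genes with an annotated 3′ UTR of 20 bases or more, against 9 over all 7172 listed genes with one. Of the factor transcripts 58.5% had at most 3 exons against 13.0% of all. Short-lived genes shared part of this trait. Up to a mock half-life of 400 min the shares were 66.2% of 65 factor genes and 32.9% of all 1950 genes. Among the HOX genes 22 of 23 had at most 3 exons. Median 3′ UTR length was 1588 bases in the factor genes and 1448 bases in all genes. The AU-rich element TATTTAT, searched on the sense strand, was present in 40 of the 82 factor 3′ UTRs (48.8%) and in 36.9% of all. The element was in 41.8% of all genes with a mock half-life up to 400 min, and in 49.2% of the factor genes there. Its presence went with a shorter median half-life over all genes, 612 min with it and 738 min without it, while the factor mRNAs stood at 186 min with it and 195 min without it. These are descriptions over genes, with no test, and a match of letters is neither a binding site nor a cause.

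Half-life calls after MOV10 siRNA were about as frequent among the factor mRNAs as among all genes. Of the 49 tested, 3 fell and 0 rose by limma at an adjusted p under 0.05, against 4.27% lower and 1.88% higher over all genes; 14 of the 49 had an unadjusted p under 0.05, beside 24.3% of all genes. The median change of the 49 was -0.02 and that of all genes 0.00. The 3 that fell were DLX2, FOXP1 and TBX3. DLX2, a homeobox factor of forebrain interneurons and the jaw, had half-lives of 129 and 129 (mock) and 60.2 and 81.7 (siRNA) in the authors' deposited table (min), both siRNA columns below both mock columns. Its change was -1.08 (SE 0.103, limma adjusted p = 0.00532). FOXP1, a forkhead repressor, had 174 and 202 (mock) and 124 and 175 (siRNA) in the authors' deposited table (min), a change of -0.54 (SE 0.0945, limma adjusted p = 0.0267) relative to the median gene. TBX3, a T-box repressor used in limb and breast development, had 179.7 and 201 (mock) and 133 and 181 (siRNA) in the authors' deposited table (min), and its change was -0.49 (SE 0.0900, limma adjusted p = 0.0298). For FOXP1 and TBX3 the minute values of mock and siRNA overlap, and the fall shows against the median gene, which stood highest in the siRNA replicate 2 column. The change in total RNA less that in labelled RNA was -0.07 for DLX2 (limma adjusted p = 0.791). For TBX3 it was 0.19 (limma adjusted p = 0.262) and for FOXP1 -0.38 (limma adjusted p = 0.0295). Flow-through RNA changed by -2.03 in DLX2, -0.77 in TBX3 and -0.29 in FOXP1. Decay was not measured apart from these fractions. The DLX2 call was kept when any one column was left out, whereas TBX3 was lost in each of those 4 fits and FOXP1 in all but the one without siRNA replicate 2. Without mock replicate 1 or without siRNA replicate 1 the count of falls was 1, and without centring on the median gene none of the 3 calls remained.

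The largest increases missed the threshold and were led by HOXA3 and HOXB3, the same-numbered genes of their clusters, which pattern the hindbrain and neck. HOXA3 had half-lives of 79.3 and 69.8 (mock) and 107 and 148 (siRNA) in the authors' deposited table (min), with no overlap, and a change of 0.56 (SE 0.128, limma adjusted p = 0.0523). HOXB3 had 189 and 168 (mock) and 235 and 368 (siRNA) in the authors' deposited table (min), also with no overlap, and a change of 0.53 (SE 0.132, limma adjusted p = 0.0674). Next came KLF11 with 0.41 (limma adjusted p = 0.0787), HOXB7 with 0.31 (limma adjusted p = 0.164) and DLX1 with 0.31 (limma adjusted p = 0.315). Half-lives were also recomputed from the same labelled and flow-through columns of each gene. Total RNA entered there only through weights fitted over all genes. On these HOXA3 and HOXB3 passed, with changes of 0.55 (limma adjusted p = 0.0324) and 0.52 (limma adjusted p = 0.0397). None of the 15 tested HOX genes passed on the deposited half-lives, and 4 of the 15 had an unadjusted p under 0.05 (limma), near the 24.3% of all genes. Their median change was 0.07, and 9 were positive and 6 negative. The 13 FOX genes had a median of -0.19, with 9 negative; of these, FOXP4 had -0.42 (limma adjusted p = 0.0719). SOX4, 1 of 2 tested SOX genes, had the larger change of the 2, 0.25 (limma adjusted p = 0.237), and PAX6, the 1 tested PAX gene, had 0.10 (limma adjusted p = 0.703). In the fit without a minimum SOX15 and PAX3 had larger changes, 0.60 (limma adjusted p = 0.241) and 0.31 (limma adjusted p = 0.160).

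FOXP2, a forkhead factor known for its part in speech, had the largest half-life change by size, -1.56 (SE 0.437, limma adjusted p = 0.0850), and its replicate columns disagreed more than those of almost any other gene. Its half-lives were 935 and 392 (mock) and 154 and 357 (siRNA) in the authors' deposited table (min). Its total RNA was 4.41 and 11.8 (mock) and 11.3 and 4.31 (siRNA), so each condition had 1 high and 1 low column. On the centred log2 scale of the tests, the gap between the mock columns of FOXP2 lay at percentile 99.97 of all genes in total RNA and 99.90 in half-life. In labelled RNA FOXP2 was 4.88 and 9.08 (mock) and 13.4 and 14.9 (siRNA), higher after siRNA without overlap, with a change of 0.84 (SE 0.198, limma adjusted p = 0.0124), a call kept when any one column was left out but lost in one fit over all 12 columns with a shared spread.

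In total RNA, which holds old and new transcripts together, the HOX genes rose more often than they fell. Of the 49 factor genes, 12 rose and 3 fell by limma, against 12.9% higher and 14.3% lower over all genes, and 8 of the 12 were HOX genes. Of the 15 tested HOX genes 8 rose and 0 fell by limma, 9 had an unadjusted p under 0.05 (39.3% of all genes), and they had a median change of 0.25, while the 34 other factor genes had a median of 0.04 and all genes one of 0.01. By cluster, 4 of 5 HOXA genes, 3 of 7 HOXB genes and 1 of 3 HOXC genes rose. The fractions did not share this. In labelled RNA 0 of the 15 rose and 4 fell by limma, against 9.88% higher and 11.5% lower over all genes. In flow-through RNA 3 rose and 8 fell, against 31.7% and 26.8%. Of the 8 that rose in total RNA, only HOXA3 and HOXB3 also rose in a fraction, the flow-through. HOXA6 and HOXA10 passed in neither fraction.

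**Figure D2:**
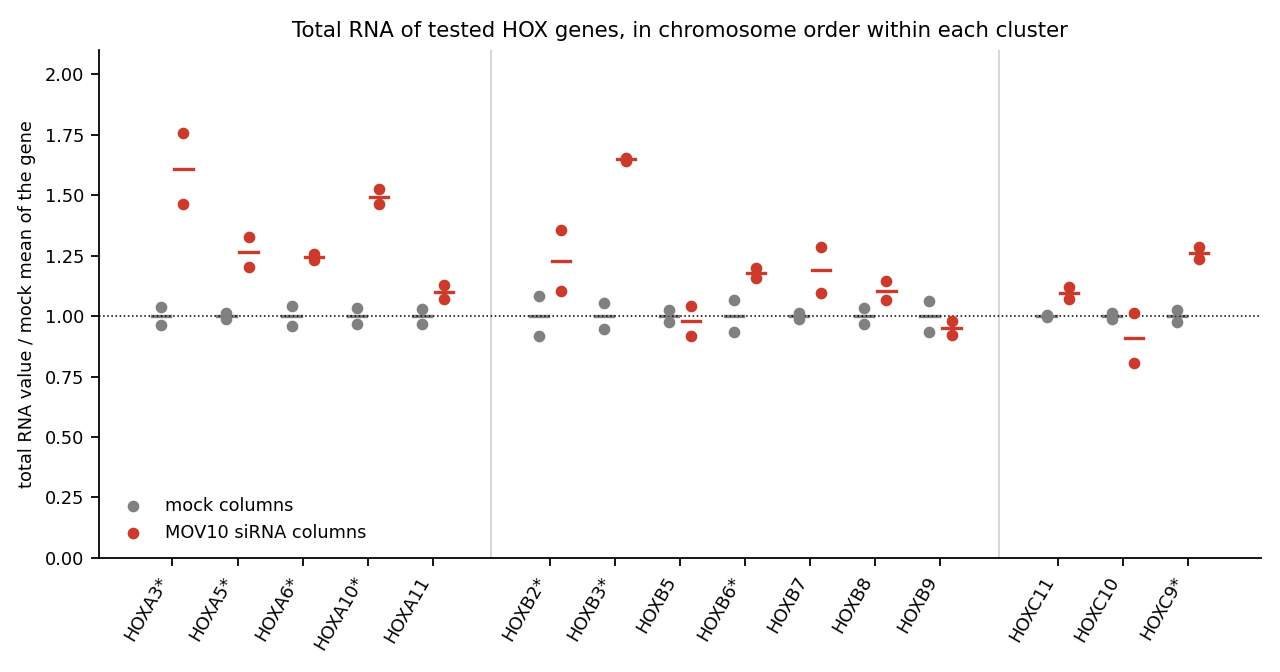
Total RNA of the 15 tested HOX genes divided by the mean of the gene's mock columns (a ratio, axis from 0), in the order of the genes along each cluster (HOXA, HOXB, HOXC from left to right). Grey points are the 2 mock columns, red points the 2 siRNA columns, bars their means, and an asterisk marks a limma adjusted p under 0.05; both siRNA columns of HOXA3, HOXA10 and HOXB3 lie above 1.4.

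HOXB3 total RNA was 8.44 and 9.38 (mock) and 14.8 and 14.6 (siRNA), with means of 8.91 ± 0.662 and 14.7 ± 0.0771 (SD, n = 2 columns). That is 1.65-fold higher, a change of 0.68 (SE 0.0805, limma adjusted p = 4.08e-05). HOXA3 total RNA was 7.98 and 8.57 (mock) and 14.5 and 12.1 (siRNA), a 1.61-fold higher mean and a change of 0.64 (SE 0.0919, limma adjusted p = 2.06e-04). These paralogs thus gave similar rises in 2 clusters, on chromosomes 7 and 17, with no overlap between conditions. HOXA10, a factor of the hindlimb and reproductive tract, was at 74.6 and 79.5 (mock) and 118 and 113 (siRNA), 1.49-fold higher, a change of 0.59 (SE 0.0617, limma adjusted p = 1.48e-05). HOXA5 was at 56.2 and 57.6 (mock) and 75.4 and 68.4 (siRNA), a change of 0.35 (SE 0.0683, limma adjusted p = 0.00203). HOXA6, its neighbour, was at 31.1 and 33.8 (mock) and 40.8 and 40.0 (siRNA), a change of 0.33 (SE 0.0684, limma adjusted p = 0.00316). Both siRNA columns of each of these genes stood above both mock columns. HOXC9 had a change of 0.32 (SE 0.0876, limma adjusted p = 0.0167) and HOXB6 one of 0.25 (SE 0.0730, limma adjusted p = 0.0205). HOXB2 had 0.31 (SE 0.0906, limma adjusted p = 0.0230), with columns at 28.5 and 33.6 (mock) and 42.1 and 34.2 (siRNA), where the lower siRNA column is barely above the higher mock column. The 7 HOX genes that did not pass had changes from -0.11 (HOXC10) to 0.24 (HOXB7). Exons of 28 of the 49 tested genes overlap another annotated gene, 26 of them one on the other strand, among them HOXA3, HOXA6, HOXA10, HOXB2, HOXB3, HOXB6 and HOXC9; the kit named in the labels is not stated to keep strand, so reads of antisense partners cannot be told apart.

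Outside the HOX clusters, GATA6, PBX3, KLF11 and FOXK1 rose in total RNA. GATA6, a zinc finger factor of endoderm and heart, was at 12.9 and 14.1 (mock) and 18.3 and 19.8 (siRNA), 1.41-fold higher, a change of 0.49 (SE 0.0801, limma adjusted p = 6.09e-04). PBX3, which like PBX2 partners HOX proteins, was at 8.22 and 9.86 (mock) and 12.3 and 11.0 (siRNA), a change of 0.36 (SE 0.0901, limma adjusted p = 0.00998). KLF11 had a change of 0.34 (SE 0.0909, limma adjusted p = 0.0146) and FOXK1, a repressor of autophagy genes, one of 0.32 (SE 0.0916, limma adjusted p = 0.0201). The genes that fell were DLX2, KLF10 and FOXC1. DLX2 total RNA was 34.2 and 42.3 (mock) and 20.8 and 19.4 (siRNA), 1.90-fold lower, a change of -0.87 (SE 0.0831, limma adjusted p = 8.21e-06). KLF10, the closest relative of KLF11 among the KLF genes, was at 13.7 and 15.0 (mock) and 11.0 and 11.5 (siRNA), a change of -0.30 (SE 0.0799, limma adjusted p = 0.0130). FOXC1, a factor of the eye and vessels, was at 74.2 and 77.2 (mock) and 66.8 and 63.0 (siRNA), a change of -0.20 (SE 0.0644, limma adjusted p = 0.0335). KLF10 and KLF11 thus moved in opposite directions, each without overlap. Leaving out siRNA replicate 1 cut the rises from 12 to 6, the calls lost being HOXA5, HOXB2, HOXB6, HOXC9, PBX3 and FOXK1, and leaving out mock replicate 2 cut the falls from 3 to 1. HOXA3, HOXB3, HOXA6, HOXA10, GATA6 and DLX2 were kept whichever of the 4 columns was left out.

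Labelled RNA, made within the labelling hour, fell in many of the same families. Of the 49 factor genes 22 fell and 2 rose by limma, against 11.5% lower and 9.88% higher over all genes, and 40 of the 49 changes were negative. Without centring, where the median gene stood 0.14 higher after siRNA, 15 fell and 4 rose. The median change of the 49 was -0.19 and that of all genes 0.00. By family, 5 of 6 KLF, 4 of 8 other homeobox, 4 of 13 FOX, 4 of 15 HOX, 2 of 3 TBX, both SOX genes and the 1 GATA gene fell.

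IRX3, a homeobox factor of neural and kidney patterning, fell most by size: its labelled RNA was 25.4 and 22.5 (mock) and 15.2 and 13.4 (siRNA), a change of -0.84 (SE 0.0880, limma adjusted p = 2.52e-04). DLX2 labelled RNA was 106 and 112 (mock) and 75.4 and 61.9 (siRNA), a change of -0.80 (SE 0.105, limma adjusted p = 8.37e-04). SOX4, an HMG-box factor of progenitor cells, was at 110.4 and 118 (mock) and 79.5 and 69.2 (siRNA), a change of -0.75 (SE 0.0981, limma adjusted p = 8.26e-04). In each of these the highest siRNA column stood below the lowest mock column. FOXC1 was at 234 and 221 (mock) and 161 and 147 (siRNA), a change of -0.70 (SE 0.0894, limma adjusted p = 7.06e-04), and FOXB1 had a change of -0.62 (limma adjusted p = 0.00419). Among the T-box genes TBX1 fell by 0.57 (limma adjusted p = 0.00649) and TBX3 by 0.41 (limma adjusted p = 0.00791). The HOX genes that fell were HOXB8 (-0.54 (limma adjusted p = 0.00311)), HOXB2 (-0.54 (limma adjusted p = 0.00384)), HOXA5 (-0.45 (limma adjusted p = 0.00418)) and HOXA3 (-0.33 (limma adjusted p = 0.0281)). HOXB2 labelled RNA was 96.3 and 93.9 (mock) and 78.6 and 65.3 (siRNA), and HOXA5 labelled RNA was 177 and 169 (mock) and 141 and 137 (siRNA), both without overlap. Of the KLF genes, KLF9, KLF16, KLF10, KLF5 and KLF4 fell, by 0.43 to 0.29; KLF11 had -0.04 (limma adjusted p = 0.742). PBX3 rose in labelled RNA as in total RNA, at 10.2 and 10.5 (mock) and 13.8 and 15.7 (siRNA), a change of 0.34 (SE 0.0890, limma adjusted p = 0.0191). Of the 22 falls 14 were kept whichever column was left out; DLX1, FOXA1, HOXA3, KLF4, KLF5, KLF10, SIX5 and SOX12 were lost in at least 1 such fit, and the count ran from 15 to 22. PBX3 was lost without mock replicate 1 and without siRNA replicate 2, which left 1 rise.

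Flow-through RNA, the unlabelled RNA, most of it older than the labelling hour, also fell more often than it rose. Of the 49 factor genes 27 fell and 7 rose by limma, against 26.8% lower and 31.7% higher over all genes, with a median change of -0.24 beside 0.03. Flow-through change went with half-life over all genes, so the factor genes were also set beside other genes of like half-life. Mock half-life itself draws on the mock labelled and flow-through columns, so it is not independent of these changes. Among the 10 factor genes with a mock half-life of at most 100 min, 5 fell and the median was -0.21; among the 115 other genes there, 57 fell and the median was -0.24. Between 100 and 200 min, 13 of 17 factor genes fell, with a median of -0.35, and 99 of 329 other genes, with a median of -0.04. In labelled RNA 7 of 10 and 9 of 17 factor genes fell in those bands, beside 34.8% and 21.9% of other genes. There the medians of the factor genes were -0.34 and -0.31, against -0.08 and -0.02 for other genes. Between 200 and 400 min they were -0.14 against -0.0044 in labelled and -0.05 against 0.01 in flow-through RNA, where 4 of 10 factor genes and 236 of 828 others fell. Above 400 min they were -0.05 against 0.01 in labelled and -0.17 against 0.04 in flow-through RNA. Labelled RNA fell for 4 of 10 factor genes and 14.7% of others between 200 and 400 min, and for 2 of 12 and 9.36% above 400 min.

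**Figure D3:**
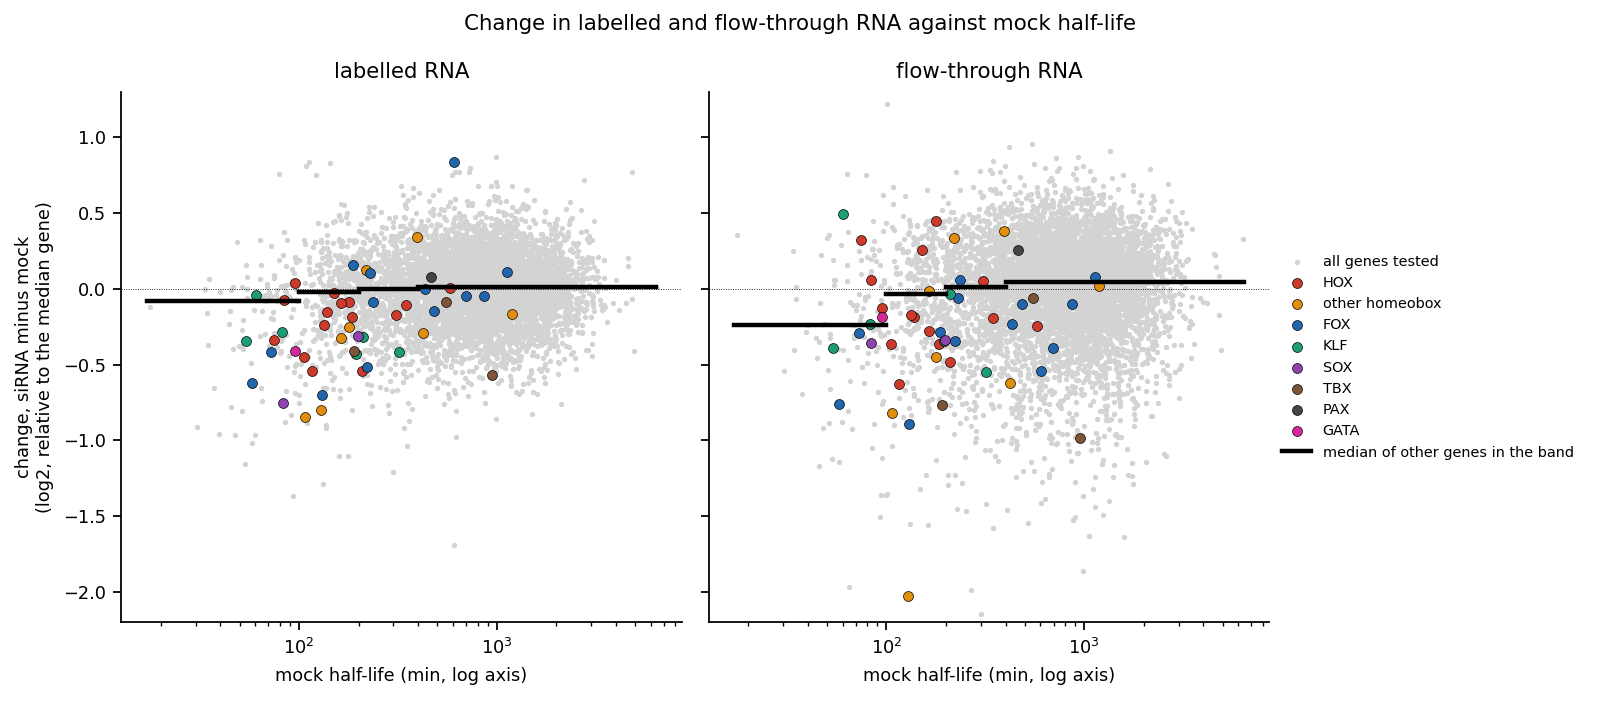
Change in labelled (left) and flow-through RNA (right), as log2 siRNA minus mock relative to the median gene, against the mock half-life in min (log axis). Coloured points are the 49 tested factor genes by family, grey points all genes tested, and black bars the medians of the other genes up to 100, 200 and 400 min and above, such as -0.24 in flow-through RNA up to 100 min; 2 genes of the right panel lie outside its vertical axis.

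DLX2 had the lowest flow-through change of the set, with values of 42.9 and 43.6 (mock) and 10.2 and 9.28 (siRNA), 4.44-fold lower, a change of -2.03 (SE 0.0637, limma adjusted p = 3.90e-05). TBX1, which patterns the throat and heart outflow, was at 14.3 and 13.2 (mock) and 6.61 and 6.19 (siRNA), a change of -0.98 (SE 0.0704, limma adjusted p = 2.87e-04). FOXC1 was at 80.1 and 75.3 (mock) and 40.3 and 41.5 (siRNA), a change of -0.89 (SE 0.0442, limma adjusted p = 1.15e-04). All 3 showed a wide gap between conditions. IRX3 (-0.82), TBX3 (-0.77), FOXB1 (-0.76), HOXB2 (-0.63), SIX5 (-0.62) and KLF16 (-0.55) followed, each with a limma adjusted p of at most 0.00217. The 7 rises were KLF11, HOXB3, PBX3, MEIS2, HOXA3, HOXB7 and PAX6. KLF11 flow-through RNA was 4.68 and 5.82 (mock) and 7.42 and 7.94 (siRNA), a change of 0.49 (SE 0.108, limma adjusted p = 0.00979). HOXB3 was at 9.60 and 8.54 (mock) and 12.5 and 12.6 (siRNA), a change of 0.45 (SE 0.0692, limma adjusted p = 0.00275). The 3 HOX genes HOXA3, HOXB3 and HOXB7 are among the rises and 8 HOX genes among the falls. Of the tested TALE homeobox genes, PBX3 and MEIS2 rose, PBX2 had 0.02 (limma adjusted p = 0.763) and IRX3 fell. HOXA3 had a change of 0.32 (limma adjusted p = 0.0186), HOXB7 one of 0.26 (limma adjusted p = 0.0129) and PAX6, the eye and brain factor, one of 0.25 (limma adjusted p = 0.0472). HOXA3, HOXB7 and PAX6 each lost the call when at least 1 column was left out, and the rises then numbered 5 or 6. The falls numbered 19 to 22, with FOXA1, FOXN3, FOXP1, GATA6, HOXB5, HOXB6, HOXC9, HOXC10, KLF10 and SOX12 lost at least once.

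Several factor genes changed differently in total and in labelled RNA, and this difference was tested directly. The siRNA change in total RNA exceeded that in labelled RNA for 19 of the 49 and was below it for 1, by limma on the 8 columns of both fractions, against 8.06% and 8.44% of all genes. Calls above were more frequent among short-lived genes. Mock half-life and this difference both draw on the mock labelled columns, so part of that relation may be built in. Up to 100 min of mock half-life, 6 of 10 factor genes and 18.3% of other genes were above. Between 100 and 200 min these were 9 of 17 and 14.6%, between 200 and 400 min 4 of 10 and 10.9%, and above 400 min 0 of 12 and 6.56%. Of the 19, 8 were HOX genes, 4 FOX, 3 KLF, 2 other homeobox genes, 1 SOX and 1 GATA gene. The largest differences were 0.98 for HOXA3 (SE 0.139, limma adjusted p = 0.00128), 0.90 for IRX3 (limma adjusted p = 0.00150) and 0.90 for GATA6 (limma adjusted p = 5.73e-04). FOXP1 was the 1 gene below, with -0.38 (SE 0.104, limma adjusted p = 0.0295). In GATA6, HOXA3, HOXA5 and HOXB2 total RNA rose while labelled RNA fell, a pair of calls that 0.989% of all genes had and that 2 or 3 of the 4 kept with 1 column left out of each fit. Labelled and flow-through RNA both fell for 18 of the 49, against 8.69% of all genes. GATA6, HOXA5 and HOXB2 rose in total RNA and fell in both fractions, as did 0.181% of all genes, or 11. With 1 column left out of each fit, 1 or 2 of these 3 genes kept all their calls: HOXA5 lost its total RNA call without siRNA replicate 1, HOXB2 lost its own in all but the fit without siRNA replicate 2, and GATA6 lost its flow-through call in all but the fit without siRNA replicate 1. Each fraction was normalised and centred by itself, so the changes of the 3 kinds of RNA are not on one absolute scale. Centring shifts all genes of a column alike. Why GATA6, HOXA5 and HOXB2 rose in total RNA and fell in both fractions was not tested. In GATA6, beside the total RNA given above, labelled RNA was at 55.2 and 55.6 (mock) and 46.9 and 44.5 (siRNA) and flow-through RNA at 13.0 and 13.0 (mock) and 11.5 and 10.9 (siRNA). In IRX3, SOX4, FOXB1 and HOXB8 the labelled RNA fell while total RNA had changes of 0.06, 0.08, 0.09 and 0.15 with limma adjusted p-values of 0.694, 0.418, 0.502 and 0.237. DLX2, FOXC1 and KLF10 fell in all 3 kinds of RNA, as did 3.73% of all genes. The total RNA calls of FOXC1 and KLF10 were each lost at least once with 1 column left out. That of FOXC1 was also lost with no centring, with no mean-variance trend and with a minimum of 20. For DLX2 the total and labelled changes were -0.87 and -0.80, a difference of -0.07 (limma adjusted p = 0.791). Leaving out 1 of the 8 columns gave 14 to 22 genes above, and 14 of the 19 were kept each time; DLX1, FOXA1, HOXB6, HOXC11 and KLF11 were lost at least once. FOXP1 was lost in 5 of those 8 fits.

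**Figure D4:**
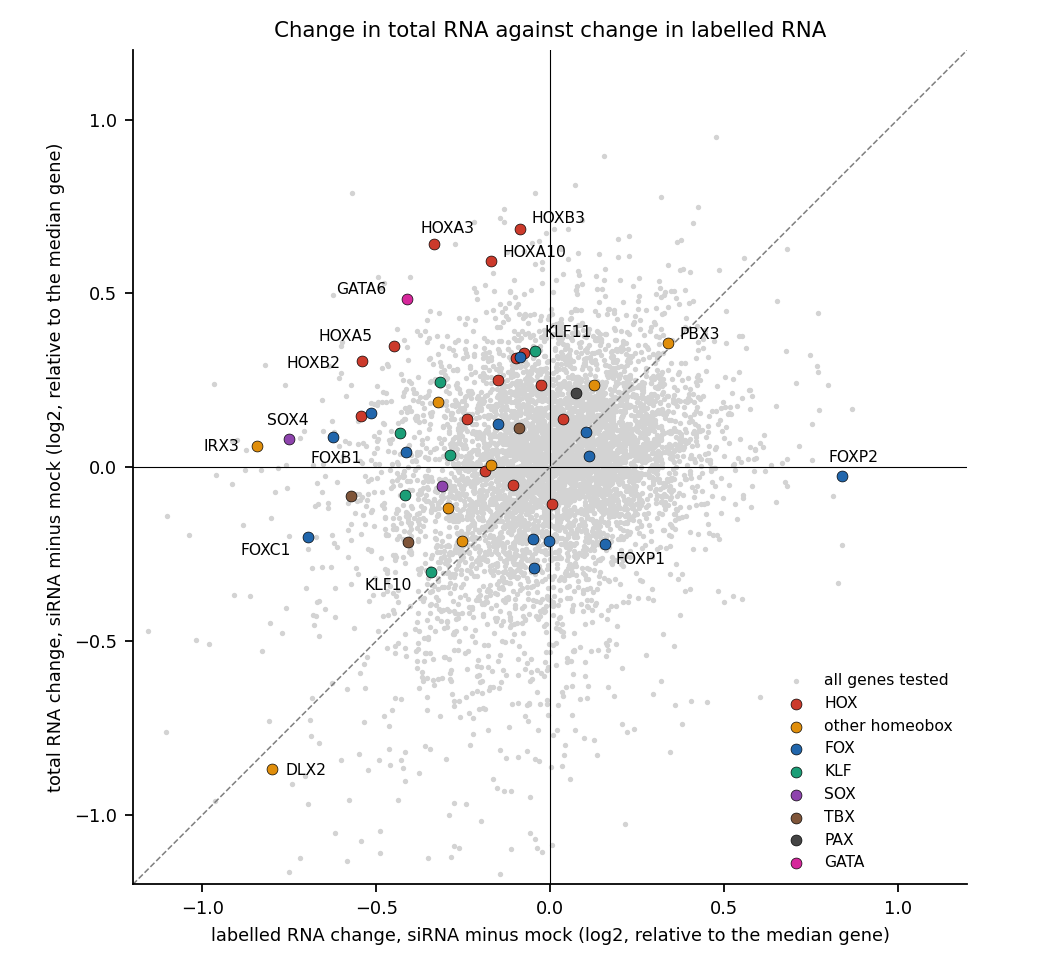
Change in total RNA against change in labelled RNA, both as log2 siRNA minus mock relative to the median gene; coloured points are the 49 tested factor genes by family and grey points all genes tested, of which 16 lie outside the axes. The dashed line marks equal change; HOXA3, HOXB3, HOXA10 and GATA6 lie high above it, and DLX2 lies near it at the lower left.

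The HOX clusters also carry the genes of miR-10a and miR-196, microRNAs that guide repression of mRNAs with a matching 3′ UTR, so the 3′ UTRs of the factor genes were searched for matches. The mature sequences below, from RefSeq on GRCh38.p14, show the seed (bases 2 to 8) in capitals; MIR10A lies in the HOXB cluster at chr17:48579904-48579926 (minus strand), and miR-196 is made from genes in the HOXA, HOXB and HOXC clusters. The miR-196a and miR-196b seeds are the same.
miR-10a-5p: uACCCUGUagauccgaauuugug
miR-196a-5p: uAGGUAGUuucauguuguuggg
miR-196b-5p: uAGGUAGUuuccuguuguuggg
The 7-base site is the reverse complement of the seed, ACAGGGT for miR-10a and ACTACCT for miR-196, and the 8-base site adds the A that stands opposite base 1. All were searched on the sense strand of the longest annotated 3′ UTR (GENCODE v29, GRCh38). The stretches below are some of the sites found, picked with the values of their genes known. The miR-196 sites of HOXB6, HOXA7 and GATA6 are not shown. HOXB6 had a half-life change of 0.00 (limma adjusted p = 0.997). The 8-base site is in capitals, or for HOXB8 the bases opposite bases 1 to 8 of miR-196a, and each runs 5′ to 3′ on the mRNA strand.
HOXA3 (miR-10a): ttctccactctttgatcagaaACAGGGTA
HOXB3 (miR-10a): ctctcttgacttaacgtgaaaACAGGGTA
KLF11 (miR-10a): ttgatgttttgtagaaataagACAGGGTA
GATA6 (miR-10a): gaagtcagtcggaatttgtaaACAGGGTA
HOXC8 (miR-196): ataataataaatctttaacatACTACCTA
HOXB7 (miR-196): gtttttcaacactgaaaaaatACTACCTA
HOXA5 (miR-196): gttaaagatatttttattcaaACTACCTA
HOXB8 (miR-196a): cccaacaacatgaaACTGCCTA
They lie at chr7:27107608-27107636 for HOXA3, chr17:48549467-48549495 for HOXB3, chr2:10052834-10052862 for KLF11, chr18:22201401-22201429 for GATA6, chr12:54012224-54012252 for HOXC8, chr17:48607614-48607642 for HOXB7, chr7:27141387-27141415 for HOXA5 and chr17:48612770-48612791 for HOXB8, all in 3′ UTR exons, on the plus strand for KLF11, GATA6 and HOXC8 and on the minus strand for the others. The HOXB8 stretch has no 8-base site but pairs over its 22 bases with miR-196a, 21 as Watson-Crick pairs and 1 as a G:U pair.

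Of the 82 factor 3′ UTRs, 4 held the miR-10a 8-base site, those of HOXA3, HOXB3, KLF11 and GATA6, or 4.88% against 2.30% of all 7172. All 4 rose in total RNA, with a median change of 0.56, beside 0.07 for the 44 tested factor genes without it; by half-life none passed, and the medians were 0.47 and -0.03. HOXA3, HOXB3 and KLF11 had the 3 largest half-life increases of the 49. Over the 121 other genes with the site, the median changes were 0.08 in total RNA and 0.06 in half-life, and 24 of the 121 rose in total RNA. The miR-10a 7-base site was in 15.9% of factor 3′ UTRs and 15.2% of all. Of the 6 tested factor genes with it, FOXP1 and FOXP4, which lack the 8-base site, had half-life changes of -0.54 and -0.42. The half-life median was 0.29 over these 6 and 0.0004 over 821 other genes with the 7-base site. The 8-base site of miR-196 was in 6 factor 3′ UTRs (7.32% against 1.72% of all), those of HOXA5, HOXA7, HOXB6, HOXB7, HOXC8 and GATA6, and HOXA7 had it in 4 places. Of the 4 that passed the expression minimum, HOXA5, HOXB6 and GATA6 rose in total RNA, and the medians of the 4 were 0.30 in total RNA and 0.13 in half-life. The 92 other genes with that site had medians of 0.06 and 0.06. The miR-196 7-base site was in 13.4% of factor 3′ UTRs and 8.27% of all. Over the 7 tested factor genes with it, FOXP2 (-1.56) among them, the half-life median was 0.04, beside 0.03 over 446 other genes. HOXB8, with its long match, had a half-life change of 0.07 (limma adjusted p = 0.783), a total RNA change of 0.15 (limma adjusted p = 0.237) and a labelled RNA change of -0.54 (limma adjusted p = 0.00311). These microRNAs were chosen with the values of the HOX genes known, and their levels and binding were not analysed here, so the matches are a description and their part in the changes was not tested.

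**Figure D5:**
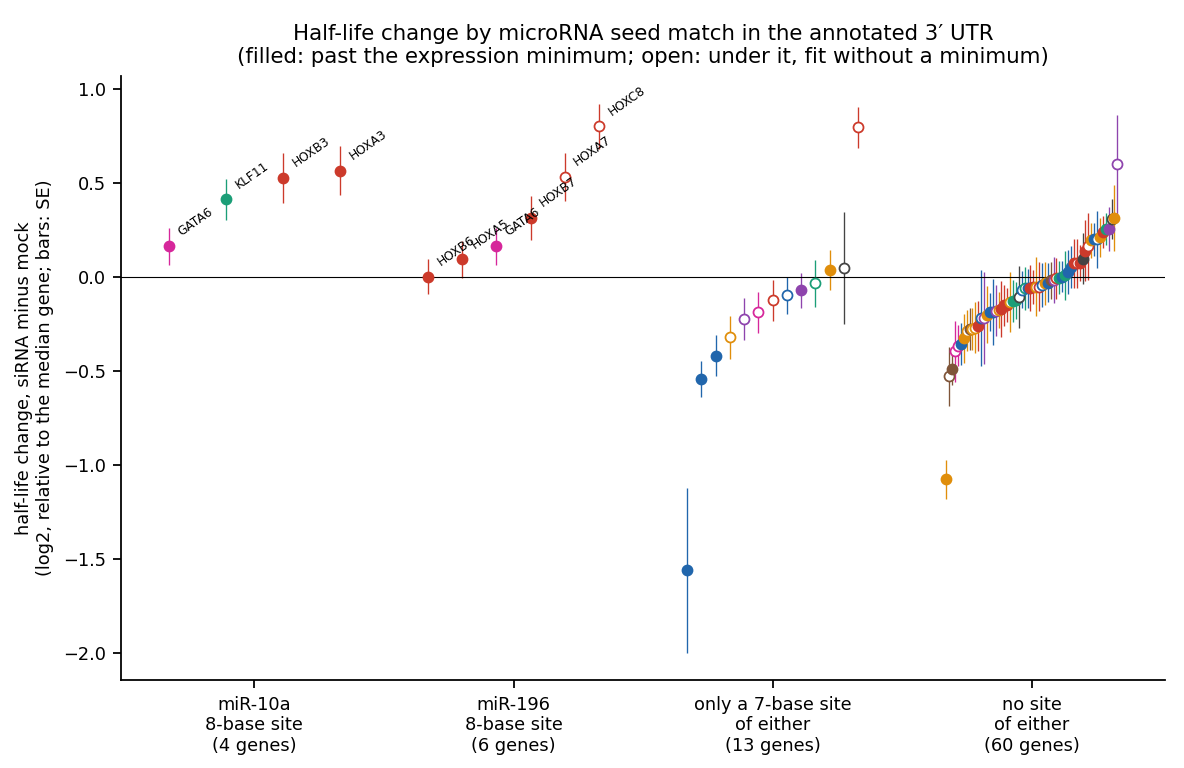
Half-life change (log2, siRNA minus mock, relative to the median gene; bars show the limma SE) of the 82 factor genes with an annotated 3′ UTR, by seed match; GATA6 carries both 8-base sites and is shown under each. Filled points passed the expression minimum, open points come from the fit without a minimum; the 4 genes with the miR-10a 8-base site lie between 0.16 and 0.56.

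The 35 factor genes under the minimum were fitted once more with all 7682 genes. In that fit 2 of the 35 rose in half-life, among them HOXC8, where 1.04% of all genes rose and 2.88% fell. HOXC8, which has a miR-196 8-base site, had half-lives of 75.7 and 72.3 (mock) and 124 and 172 (siRNA) in the authors' deposited table (min) and a change of 0.80 (SE 0.121, limma adjusted p = 0.0268). Each siRNA column of HOXC8 stood above each mock column. HOXC8 total RNA was 4.94 and 3.95 (mock) and 7.47 and 5.94 (siRNA), a change of 0.52 (SE 0.127, limma adjusted p = 0.0131), and its flow-through RNA changed by 0.79 (limma adjusted p = 9.38e-04). HOXA7, with 4 miR-196 sites, had a half-life change of 0.53 (limma adjusted p = 0.0790) and a total RNA change of 0.41 (limma adjusted p = 0.0126). Of the 35, 6 rose in total RNA, among them HOXA7, HOXA13 and HOXC8, and 1 fell, against 11.6% and 13.3% of all genes. In labelled RNA 12 fell, where 11.2% of all genes fell and 9.79% rose, and in flow-through RNA 13 fell and 4 rose (25.2% and 29.7%). IRX5, the neighbour of IRX3, fell by 0.72 in labelled RNA (limma adjusted p = 1.22e-04) and by 0.85 in flow-through RNA (limma adjusted p = 8.58e-04), next to changes of -0.84 and -0.82 for IRX3. The 35 genes are given apart because their total RNA averaged under 5 in at least 1 condition; their labelled RNA could be higher, as for HOXC8 at 18.1 and 17.1 (mock) and 20.5 and 18.6 (siRNA).

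Genes related to these factors, or known to work with them, were read from lists; over all genes, 12.9% rose and 14.3% fell in total RNA and 9.88% rose and 11.5% fell in labelled RNA. Of 26 listed homeobox genes outside the rule, 12 were tested; their 26 had a median mock half-life of 222 min, 3 of the 12 rose and 1 fell in total RNA, and 1 rose and 5 fell in labelled RNA. Among them PITX1, a hindlimb factor, rose by 0.29 (limma adjusted p = 0.0201) in total RNA while its labelled RNA changed by -0.47 (limma adjusted p = 0.00584), the same pair of calls as HOXA5. TGIF2, a TALE repressor, had a half-life change of -0.55 (limma adjusted p = 0.0227). The Polycomb and trithorax proteins set the chromatin of the HOX clusters; of 28 tested genes 9 rose and 3 fell in total RNA, with a median change of 0.06 and a median mock half-life of 706 min over the 31 listed. SUZ12 (0.34 (limma adjusted p = 0.00411)) and EED (0.33 (limma adjusted p = 0.00699)), subunits of the complex that methylates HOX chromatin, rose in total RNA, while its catalytic subunit EZH2 had 0.06 (limma adjusted p = 0.557). The genes that fell were PCGF2 (-0.42 (limma adjusted p = 0.00214)), PCGF6 (-0.30 (limma adjusted p = 0.0190)) and PHF1 (-0.28 (limma adjusted p = 0.0332)). Of 13 tested cofactors of HOX, sine oculis and GATA factors, 1 rose and 3 fell in total RNA, TLE3, a Groucho corepressor, having a half-life change of -0.53 (limma adjusted p = 0.0366). Of 5 SP and KLF-related zinc finger genes 1 rose and 1 fell in total RNA, and of 7 TCF and LEF relatives of SOX 2 fell, TCF7 and LEF1. Among 17 kinases and regulators of FOXO factors 3 rose and 4 fell in total RNA.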

How the data were processed

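Poly(A)+ libraries of total, labelled and flow-through RNA were sequenced for 100 cycles and aligned with TopHat2 2.06 to hg18, per the submitters' processing notes and the labels. The deposited table holds the authors' normalised expression signal, with no unit named, in 12 columns (2 per group, where GEO lists 1 sample per group), and the authors' half-lives, the other unit, in 4 columns. Each half-life was recomputed from the labelled and flow-through signals of the gene by first-order decay over 60 min. Total RNA entered only through the weights of those fractions, fitted over all genes. Over genes, Pearson's r with the deposited log2 values ran 0.968 to 0.983 across columns, a measure that does not depend on the unit. The unit was settled as minutes by the levels. Recomputed medians over all genes were 614 and 642 min (mock) and 629 and 702 min (siRNA), beside deposited medians of 657 and 713 (mock) and 668 and 900.0 (siRNA). As the values are not counts, depth is unknown and no counting interval is given.

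Signals were taken as log2(value + 1), which understates changes of low genes, and half-lives as log2. Each column was centred on its median gene. Genes averaging at least 5 in total RNA under each condition (6064 of 7682, 78.9%) were fitted with limma 3.58.1 in R 4.3.3, allowing a mean-variance trend. Adjusted p-values are Benjamini-Hochberg. A fit over 8 columns gave the total minus labelled difference. Folds are plain ratios of group means. The fit was tested on simulated data. The genes, families and lists were chosen with earlier results of these data known. Named are the tested genes past the threshold in any measure, the 5 largest half-life increases and decreases, the 5 shortest and longest mock half-lives, the largest half-life change of each family, and FOXP2; HOXA7, HOXC8, HOXA13, IRX5, DLX4, HOXC11, SOX15 and PAX3 and genes of the lists were singled out after their values were seen. The longest annotated 3′ UTR per symbol was read from GENCODE v29, a build other than the authors', so only its own coordinates are given; it was found for 82 of the 84 genes, and microRNAs came from RefSeq. Some results for single genes are not reported here. FOXO3B is a near copy of FOXO3, so its values are uncertain. Plots used matplotlib 3.10.9 in Python 3.11.15.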

Additional observations from a re-analysis of the deposited data

Results flagged for a closer look

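The siRNA change differed between total and labelled RNA for 20 of the 49 tested factor genes, by limma's test of the difference itself, 19 above and 1 below, where 8.06% of all genes were above and 8.44% below. Among other genes of short mock half-life the share above was larger, 18.3% up to 100 min and 14.6% between 100 and 200 min. Part of that may be built in, as mock half-life draws on the same mock labelled columns. Of the factor genes in those bands, 6 of 10 and 9 of 17 were above. The values are total minus labelled changes on the log2 scale. Among HOX genes they were 0.98 for HOXA3, 0.85 for HOXB2, 0.80 for HOXA5, 0.77 for HOXB3, 0.76 for HOXA10, 0.69 for HOXB8, 0.40 for HOXB6 and 0.38 for HOXC11. The homeobox genes IRX3 and DLX1 had 0.90 and 0.51. Among forkhead genes they were 0.71 for FOXB1, 0.67 for FOXF2, 0.50 for FOXC1, 0.46 for FOXA1 and, in the other direction, -0.38 for FOXP1. KLF5, KLF9 and KLF11 had 0.56, 0.53 and 0.38, SOX4 had 0.83 and GATA6 had 0.90. In all but FOXP1 total RNA moved up relative to labelled RNA. The fractions may come from the same cultures, which the labels do not give, so these p-values may be off in either direction; no group has enough columns for a check of single outlying columns.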

How the results depend on the processing

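Half-life calls depended most on the settings. The 0 rises became 2 with no minimum (HOXC8 among them), 1 with no mean-variance trend (HOXA3) and 2 with recomputed half-lives (HOXA3 and HOXB3). The 3 falls became 1 with the replicate block, 1 with no minimum, 1 with a minimum of 20, 1 with no centring (FOXP2, with none of the 3 kept), and 1 to 2 with 1 column left out. The median half-life change, -0.02, was 0.17 with no centring. The median mock half-life of the 49 genes, 190.1 min, was 138 min with a minimum of 20, which kept 13 of them and 2603 genes in all, 171 min on recomputed half-lives, and 188 to 201 min with 1 mock column left out.

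In total RNA the 12 rises became 5 with a minimum of 20 and 6 to 9 with 1 column left out, and the 3 falls became 1 with that minimum, 5 with the replicate block, and 1 to 3 with 1 column left out. In labelled RNA the 2 rises became 0 with a minimum of 20, 4 with no centring, 1 in one fit over all 12 columns (FOXP2 lost), 1 without FOXP2 (an alternative chosen after seeing the data), and 1 to 2 with 1 column left out. The 22 labelled falls became 34 with no minimum and 5 with a minimum of 20. In flow-through RNA the 7 rises became 11 with no minimum and 0 with a minimum of 20, and the 27 falls became 7 with a minimum of 20. Of the total minus labelled calls, 19 above became 7 and 1 below became 0 with a minimum of 20, and the 1 below became 0 to 1 with 1 column left out. A minimum of 20 leaves fewer genes to call.

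The PAX6 half-life change, 0.10, turned to -0.0734 without mock replicate 1 and -0.000118 without siRNA replicate 1, and was 0.26 without mock replicate 2. Of the other values for single genes under all settings, 934 kept direction and side of the threshold, 146 lost it and 5 gained it. The replicate numbers pair nothing in the labels: deviations of same-numbered columns correlated over genes at -0.07 (half-life), 0.05 (total RNA), -0.04 (labelled RNA) and 0.11 (flow-through), with only 2 pairs. With the block, total RNA had 16 rises, labelled RNA 2 rises and 23 falls, and flow-through RNA 7 rises and 27 falls, with GATA6 lost and KLF4 gained; of the total minus labelled calls KLF11 was lost and HOXC9 gained. Leaving out 1 column leaves 1 in its group, which is then assumed to vary like the columns of the other group. With 2 columns a group and unknown depth, low genes and small changes are the least certain.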

Other observations

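Other factor genes changed in single fractions. FOXF2, a forkhead factor of gut and palate mesenchyme, fell in labelled RNA, 27.7 and 25.5 (mock) and 20.5 and 19.9 (siRNA), a change of -0.52 (SE 0.0778, limma adjusted p = 0.00159), while its total RNA changed by 0.16 (limma adjusted p = 0.209). SIX5, a homeobox factor of the eye, fell in flow-through RNA by 0.62 (limma adjusted p = 0.00160). KLF9, which responds to thyroid hormone and glucocorticoids, had near equal values within each condition, 24.8 and 25.3 (mock) and 20.2 and 20.3 (siRNA) in labelled RNA, a change of -0.43 (SE 0.0801, limma adjusted p = 0.00420). KLF5 had a labelled change of -0.32 (limma adjusted p = 0.0164) beside a total RNA change of 0.25 (limma adjusted p = 0.0585). MEIS2, a TALE partner of HOX proteins, had changes of 0.24 (limma adjusted p = 0.0600) in total and 0.34 (limma adjusted p = 0.00923) in flow-through RNA. The 5′ HOX genes HOXB9 and HOXC10 fell in flow-through RNA, by 0.19 (limma adjusted p = 0.00636) and 0.25 (limma adjusted p = 0.0266), with total RNA changes of -0.05 and -0.11 (limma adjusted p = 0.615 and 0.499).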
